A study of Homo sapiens with 6 samples.

Results

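A set of 10 genes of cholinesterases and choline uptake was described in human 22Rv1 prostate cancer cells: the 2 cholinesterases BCHE and ACHE, the membrane anchor PRIMA1, the 5 choline transporter-like proteins SLC44A1 to SLC44A5, and the choline kinases CHKA and CHKB. The set was chosen by function around BCHE, which was selected on its measured fall between the same libraries that are compared here, so the values of the 10 genes are a description and carry no test. These are 10 of 57500 annotated genes, and all 10 were among the 19255 genes with enough counts to be tested. The study sequenced polyA-selected RNA of 22Rv1, an established androgen receptor-positive line, to follow how prostate-specific membrane antigen varies in metastatic disease. One group of 3 libraries came from the parental cells, labelled as control and wild type. The other group of 3 came from a 22Rv1 derivative that the labels trace to a liver metastasis. The labels give both groups the same growth medium, RPMI-1640 with 10% fetal bovine serum, and name no drug or engineered allele. They do not say whether the liver-derived cells are 1 isolate or several, which host they grew in, or whether the replicates were separate cultures. P-values therefore measure the spread between these libraries, which may be partly technical. A further condition named in the design text was not analysed here.

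Cholinesterases split choline esters. Acetylcholinesterase, encoded by ACHE, ends signalling by acetylcholine, while butyrylcholinesterase, encoded by BCHE, has a broader range of substrates and is secreted into plasma by the liver. PRIMA1 is a proline-rich membrane protein that ties cholinesterase tetramers to the cell surface. Choline itself enters cells through several carriers, among them the SLC44A family, and the choline kinases phosphorylate it as the opening step of phosphatidylcholine synthesis. Trapping of phosphorylated choline is the basis of choline positron emission tomography in prostate cancer.

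The 2 genes with the largest differences, BCHE and PRIMA1, and the most abundant of the 10, SLC44A2, are shown with the bases before their transcription start (RefSeq, GRCh38.p14, written in the direction of transcription). RefSeq windows of 300 bases, from 250 before to 50 after the start, were found for 9 of the 10 genes, and CHKA had no entry. Only the stretch before both the RefSeq start and the gene's start in the count files is printed. Capitals mark 4 motifs searched on both strands. These were a TATA box (TATAAA), a GC box (GGGCGG), an androgen receptor half-site (AGAACA) and an AP-1-like pattern (TGANTCA, with N as any base). Overlapping matches were counted separately.
BCHE, chr3:165837473-165837673, minus strand: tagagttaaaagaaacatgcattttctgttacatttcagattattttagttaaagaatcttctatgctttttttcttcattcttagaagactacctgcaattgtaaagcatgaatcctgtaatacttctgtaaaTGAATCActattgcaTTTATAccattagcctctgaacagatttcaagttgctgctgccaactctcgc
PRIMA1, chr14:93788486-93788735, minus strand: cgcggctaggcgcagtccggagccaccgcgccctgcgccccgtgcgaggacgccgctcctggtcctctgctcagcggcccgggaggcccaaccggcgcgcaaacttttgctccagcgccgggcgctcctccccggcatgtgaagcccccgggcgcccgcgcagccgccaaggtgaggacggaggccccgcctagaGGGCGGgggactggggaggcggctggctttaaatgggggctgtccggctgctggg
SLC44A2, chr19:10602205-10602454, plus strand: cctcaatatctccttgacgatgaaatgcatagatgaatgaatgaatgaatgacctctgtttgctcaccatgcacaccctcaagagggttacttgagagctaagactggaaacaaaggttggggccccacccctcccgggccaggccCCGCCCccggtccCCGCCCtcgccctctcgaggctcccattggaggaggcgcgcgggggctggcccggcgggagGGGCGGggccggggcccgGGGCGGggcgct
The BCHE window was AT-rich, with 36.7% GC and 2 CpG dinucleotides in 300 bases. Only 6.54% of the 35116 promoter windows of that length had as little GC, and the median over all was 58.7% GC with 14 CpG. It held 1 TATA box, read on the opposite strand 101 bases before the start. It also held 1 match to the AP-1-like pattern, TGAATCA, 116 bases before the start. TATA boxes were found in 11.5% of all windows and matches to the AP-1-like pattern in 7.71%. The PRIMA1 window stood at the other end, with 74.3% GC, 35 CpG and 1 GC box. SLC44A2 had 69.0% GC, 25 CpG and 6 GC boxes, 4 of them in the stretch shown, against GC boxes in 45.0% of all windows. None of the 3 windows held the androgen receptor half-site, which 14.8% of all windows held. SLC44A5 resembled BCHE in composition, with 40.7% GC and 1 CpG. A match is a description of letters and shows no bound factor.

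Library totals ranged from 28395265 to 53275252 counts. Of the parental libraries, replicate 2 was unlike the rest. A chi-square comparison of counts at 14650 genes, divided by its degrees of freedom, gave 55.7 and 62.7 for this library with its 2 partners, 2.26 between those partners, and 2.43 to 3.15 among the liver-derived libraries. Values without this library are given beside the results it moved most. The prostate label was checked on 8 luminal markers, of which 3 rose, 4 fell and 1 did not pass, and whose summed level was 2946 to 3277 CPM (reads per 1e6 counted, scaled by TMM) in parental and 3126 to 3189 in liver-derived libraries. Of 12 stromal and blood markers, 8 had enough counts, 2 were lower and none higher, with summed levels of 22.8 to 26.9 and 22.2 to 24.7 CPM. LUM, 1 of the 2, had enough counts in the parental group only (88, 67 and 103 reads against 2, 4 and 1). Calls thus covered 87.5% of the tested luminal and 25% of the tested stromal and blood markers, against 38.8% of all genes tested.

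Of the 10 genes, 5 were lower and 2 higher in liver-derived cells at an adjusted p under 0.05 (edgeR's quasi-likelihood test, Benjamini-Hochberg over all genes tested), and 3 did not pass. Over all 19255 genes, 38.8% were called, 17.5% as higher and 21.3% as lower. In 8 of the 10 the CPM ranges of the groups did not overlap, which held for 54.0% of all genes tested. Since the genes were chosen with this contrast known, nothing is read from these counts. The median log2 fold change was -0.25 over the 10 genes and -0.01 over all genes. Without parental replicate 2 the 10 genes held 6 lower and 2 higher calls, the added one being SLC44A1. BCHE and PRIMA1 were near 0 in the liver-derived libraries and passed the filter on low counts only through the parental group. Entry of that kind favours a difference, so their calls support nothing.

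**Figure D1:**
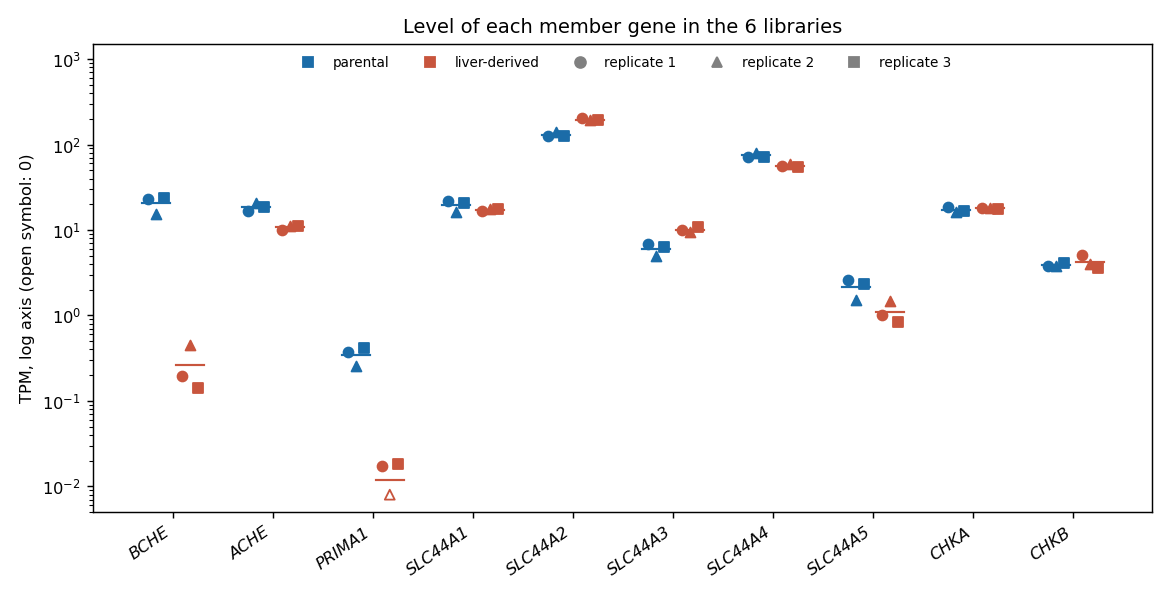
Level of the 10 genes in each library, in TPM (transcripts per 1e6, corrected for gene length; log axis); colours are groups, symbols are replicate numbers, horizontal lines are group means and the open symbol stands for 0. BCHE lies at 15.5 to 23.4 TPM in parental and 0.140 to 0.450 TPM in liver-derived libraries, PRIMA1 is low in both groups, and SLC44A2 is the highest of the 10 in every library.

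BCHE (ENSG00000114200, chr3:165772904-165837472, minus strand, GRCh38) showed the largest difference of the set. Its read counts were 930, 630 and 1023 in parental replicates 1, 2 and 3, and 9, 11 and 6 in liver-derived replicates 1, 2 and 3. In TMM-scaled CPM these were 19.1, 13.9 and 19.4 against 0.172, 0.394 and 0.124. Every parental library was far above every liver-derived one, and parental replicate 2 was the lowest of its group. The mean was 17.5 ± 3.11 CPM in parental and 0.230 ± 0.144 CPM in liver-derived cells (SD, n = 3 each). The fitted log2 fold change was -6.40 (SE 0.28, 95% interval -7.03 to -5.78), an 84.7-fold difference. Summed over libraries, 2583 reads stood against 26, and the depth-scaled liver-derived level was 1.15% of the parental one (95% counting interval 0.748 to 1.68%). That interval covers counting error only. Without parental replicate 2 the log2 fold change was -6.56 (95% interval -6.87 to -6.24). In RNA from bulk cultures, fewer BCHE-expressing cells and less BCHE RNA per cell cannot be told apart.

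Hepatocytes are a known source of BCHE, and the liver-derived libraries were therefore checked for hepatocyte markers. Of 12, 5 had enough counts, of which 3 were higher, 1 was lower and 1 did not pass. That is 80% of the 5 called, against 38.8% of all genes. Beside ALB, APOA1 was higher, at 0.184 ± 0.0528 and 0.628 ± 0.0807 CPM. ARG1 was higher too, at 0.0732 ± 0.0362 and 0.379 ± 0.0553 CPM. ASGR1 was lower, at 1.47 ± 0.0714 and 0.178 ± 0.0409 CPM. Of these 5, 4 passed the filter through 1 group only, so the counts describe little beyond ALB. The summed level was 43.6 to 54.4 CPM in parental and 66.1 to 69.7 CPM in liver-derived libraries, most of it from ALB, the albumin gene, at 47.7 ± 6.06 and 65.8 ± 1.61 CPM. FGA, the fibrinogen alpha chain gene, was at 0 in all 6 libraries. ASGR1, a hepatocyte receptor gene, was singled out after its values were seen, and the part of hepatocyte RNA in the BCHE values was not tested.

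ACHE (ENSG00000087085, chr7:100889994-100896974, minus strand) was also lower in liver-derived cells, but by far less. It measured 16.7, 22.6 and 18.9 CPM in the parental libraries and 10.5, 11.8 and 11.8 CPM in the liver-derived ones. The groups did not overlap, and parental replicate 2, low for BCHE, was the highest for ACHE. Means were 19.4 ± 2.96 and 11.4 ± 0.727 CPM, a log2 fold change of -0.77 (SE 0.12, 95% interval -1.04 to -0.50). Without parental replicate 2 it was -0.66 (95% interval -0.80 to -0.51).

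The balance between the 2 enzymes differed between the groups. BCHE made up 58.1, 42.7 and 55.4% of the summed BCHE and ACHE TPM in the parental libraries, and 1.94, 3.89 and 1.25% in the liver-derived ones. TPM corrects for transcript length, so the 2 genes can be set side by side. Parental cells held the 2 transcripts at a similar level, with ACHE over BCHE at 0.721, 1.34 and 0.804. In liver-derived cells ACHE exceeded BCHE by 50.5, 24.7 and 78.9 times. Those ratios rest on 6 to 11 BCHE reads per library.

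PRIMA1 (ENSG00000175785, chr14:93718298-93788481, minus strand), which anchors both enzymes, was sparse throughout. It had 19, 13 and 23 reads in parental and 1, 0 and 1 reads in liver-derived libraries. Means were 0.371 ± 0.0768 and 0.0133 ± 0.0115 CPM, so no liver-derived library reached the lowest parental one. The liver-derived level was 4.14% of the parental level by summed, depth-scaled reads, 2 against 55, with a 95% counting interval of 0.490 to 15.7%. The corresponding ratio was 24.1-fold, and its interval ran from 6.37 to 204-fold. COLQ, the collagen tail that anchors acetylcholinesterase in muscle, was at 1.01 ± 0.349 and 1.35 ± 0.169 CPM and did not pass the test (adjusted p = 0.23). COLQ was singled out after its values were seen.

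Among the transporters, SLC44A2 (ENSG00000129353, chr19:10602457-10644559, plus strand) was the most abundant and was higher in liver-derived cells. This protein carries choline at the plasma membrane and in mitochondria. Its CPM was 180.2, 210.1 and 176.3 in parental and 301.2, 283.2 and 287.9 in liver-derived libraries. All 3 liver-derived values lay above all 3 parental values. The log2 fold change was 0.62 (SE 0.08, 95% interval 0.44 to 0.81), or 1.54-fold. Parental replicate 2 was the highest parental library, and without it the log2 fold change was 0.71 (95% interval 0.66 to 0.76).

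SLC44A3 (ENSG00000143036, chr1:94820342-94895246, plus strand), a less studied member of the family, had the largest difference upward of the 10 genes. It stood at 5.29, 4.17 and 4.82 CPM in parental and 8.20, 7.80 and 8.78 CPM in liver-derived libraries, with no overlap. The fitted difference was 0.80 on the log2 scale (SE 0.11, 95% interval 0.54 to 1.05). Its level remained low beside that of SLC44A2: 10.1 ± 0.560 against 195.8 ± 6.51 TPM in liver-derived cells.

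SLC44A4 (ENSG00000204385, chr6:31863192-31879046, minus strand), which also carries thiamine pyrophosphate in the gut, was moderately lower. Values were 65.5, 78.8 and 65.2 CPM in parental against 53.4, 56.2 and 53.2 CPM in liver-derived libraries. The groups were apart, and parental replicate 2 was again the highest. The log2 fold change was -0.36 (SE 0.09, 95% interval -0.57 to -0.16). Leaving out liver-derived replicate 1 or 3 ended the call, with log2 fold changes of -0.35 and -0.35, and without parental replicate 2 it was -0.27.

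SLC44A5 (ENSG00000137968, chr1:75202131-75611116, minus strand) was the least abundant transporter and nearly overlapped between groups. The parental libraries held 4.45, 2.75 and 3.91 CPM and the liver-derived ones 1.82, 2.61 and 1.52 CPM. The highest liver-derived value, from replicate 2, lay just under the lowest parental one, also from replicate 2. The log2 fold change was -0.94 (SE 0.23, 95% interval -1.47 to -0.42). Without liver-derived replicate 3 it was -0.78 and without parental replicate 2 it was -1.13. Limma on log2(TPM + 1) gave -0.57, and neither that fit nor the one without liver-derived replicate 3 called the gene.

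SLC44A1 (ENSG00000070214, chr9:105244622-105439171, plus strand), the best known choline carrier of the family, overlapped between groups. CPM values were 72.7, 57.0 and 67.3 in parental and 56.9, 61.4 and 61.7 in liver-derived libraries. Parental replicate 2 was at the liver-derived level while the other 2 parental libraries were above all 3. The log2 fold change was -0.13 (SE 0.10, 95% interval -0.35 to 0.09) with all libraries. Without parental replicate 2 it was -0.23 (95% interval -0.30 to -0.15), and the gene was then called lower. SLC44A1 and SLC44A4 were thus the members whose calls turned on single libraries, together with SLC44A5.

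The family as a whole shifted toward SLC44A2. The summed TPM of the 5 transporters was 230.3, 241.3 and 226.7 in parental and 286.6, 278.6 and 277.4 in liver-derived libraries, without overlap. SLC44A2 accounted for 55.3, 57.3 and 55.4% of that sum in parental and 70.9, 68.6 and 69.6% in liver-derived libraries. The share of SLC44A4 was 31.1 to 33.3% in parental and 19.5 to 21.1% in liver-derived libraries. SLC44A1 contributed 6.67 to 9.55% and 5.74 to 6.38%, SLC44A3 2.07 to 2.95% and 3.44 to 3.85%, and SLC44A5 0.622 to 1.13% and 0.305 to 0.524%. SLC44A2 and SLC44A4 together therefore supplied most SLC44A transcripts in both groups.

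Neither choline kinase gene passed the test. CHKA (ENSG00000110721, chr11:68052859-68121444, minus strand), which encodes choline kinase alpha, stood at 19.7, 18.4 and 17.4 CPM in parental and 19.9, 19.9 and 19.8 CPM in liver-derived libraries. The liver-derived values lay just above the parental ones in CPM and inside their range in TPM (16.3 to 18.7 parental, 17.8 to 18.1 liver-derived). The log2 fold change was 0.10 (SE 0.08, 95% interval -0.08 to 0.28). An antisense gene, ENSG00000255031, shares 631 exon bases with CHKA, 16.3% of its exons, and held 55 to 127 reads per library against 555 to 1041 for CHKA. The sources used here give no strand setting for the counting, so reads of the 2 genes may mix.

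CHKB (ENSG00000100288, chr22:50578949-50601455, minus strand), which encodes choline kinase beta, measured 3.11, 3.33 and 3.34 CPM in parental and 4.36, 3.47 and 3.13 CPM in liver-derived libraries. The groups overlapped, with 2 liver-derived libraries above all parental ones and 1 within the parental range. Its log2 fold change was 0.17 (SE 0.14, 95% interval -0.15 to 0.50). CHKB counts are uncertain: the readthrough gene CHKB-CPT1B lies on the same strand and shares 2189 of its 3021 exon bases. That gene rose (log2 fold change 0.71, SE 0.10, edgeR adjusted p = 4.26e-04), with 161 to 191 reads in parental and 169 to 304 in liver-derived libraries. CHKB made up 16.9 to 19.8% of the summed CHKA and CHKB TPM in parental and 16.9 to 21.9% in liver-derived libraries, so CHKA was the main kinase transcript in every library.

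**Figure D2:**
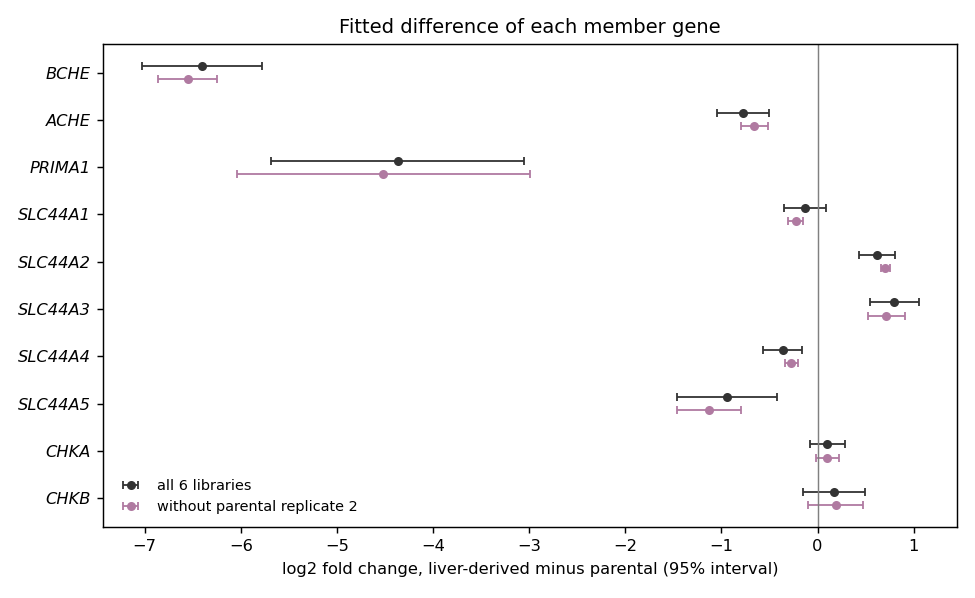
Fitted log2 fold change of each gene, liver-derived minus parental, with its 95% interval, from all 6 libraries (dark) and without parental replicate 2 (purple). BCHE and PRIMA1 lie at -6.40 and -4.37, ACHE and the 5 transporters between -0.94 and 0.80, and the intervals of SLC44A1, CHKA and CHKB span 0 with all libraries, that of SLC44A1 only with parental replicate 2 kept.

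Ranked by TPM, the order of the 10 genes differed between groups mainly in the place of BCHE. In parental cells SLC44A2 (126 to 138 TPM) and SLC44A4 (71.6 to 80.4 TPM) led. BCHE, SLC44A1, ACHE and CHKA followed, at 15.5 to 23.4 TPM over the 4 genes, and no neighbours among these were apart. SLC44A3, CHKB, SLC44A5 and PRIMA1 came last, each apart from the next. In liver-derived cells SLC44A2, SLC44A4, CHKA and SLC44A1 led in that order, each apart from the next, and BCHE had moved to the ninth place, between SLC44A5 (0.846 to 1.46 TPM) and PRIMA1 (0 to 0.0185 TPM). ACHE and SLC44A3 were not apart there, at 9.93 to 11.1 and 9.57 to 10.7 TPM.

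Within the parental group, the deviation of replicate 2 went with GC content. On the log2 CPM scale, replicate 2 minus the mean of replicates 1 and 3 was -0.59 for SLC44A5, -0.47 for BCHE and -0.29 for SLC44A1, whose longest transcripts hold 39.0, 37.6 and 39.2% GC. It was 0.34 for ACHE at 65.1% GC, 0.27 for SLC44A4 at 55% and 0.24 for SLC44A2 at 56.3%. PRIMA1, with 55.3% GC and 13 to 23 parental reads, went the other way at -0.47. Replicate 1 minus replicate 3 stayed between -0.17 and 0.19 for all 10 genes. Over 19165 genes Spearman's rho between GC content and the deviation of replicate 2 was 0.71, against 0.08 for the difference of replicates 1 and 3. These are correlations across genes of the same libraries and are given without a test. BCHE, ACHE, PRIMA1 and SLC44A2 to SLC44A5 kept their direction and call with parental replicate 2 left out.

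**Figure D3:**
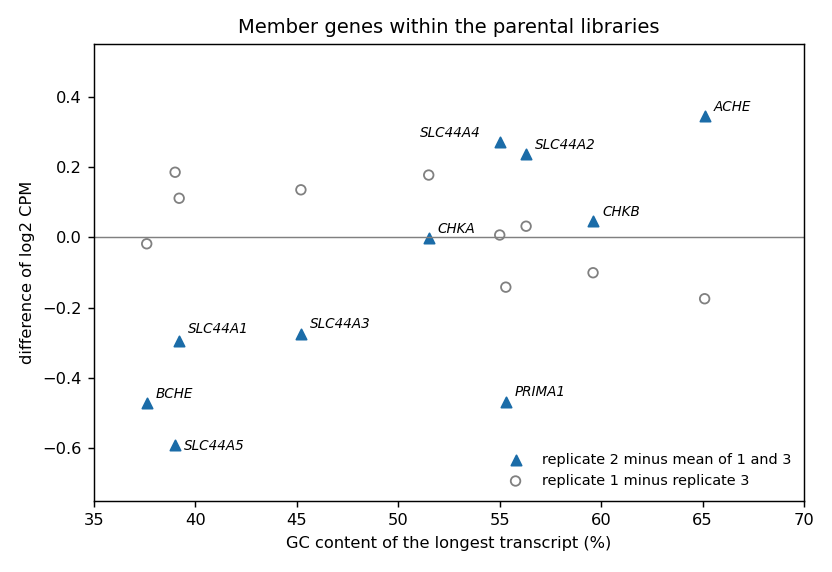
Deviation of parental replicate 2 from the mean of replicates 1 and 3 (triangles) and replicate 1 minus replicate 3 (circles), as differences of log2 CPM, against GC content (longest transcript) for the 10 genes. The triangles run from -0.59 (SLC44A5) to 0.34 (ACHE) and mostly climb with GC content, with PRIMA1 apart at -0.47, while the circles stay between -0.17 and 0.19.

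Most of the tested partners of the cholinesterases in acetylcholine signalling were lower in liver-derived cells. Of 26 genes for acetylcholine synthesis, release, receptors and receptor modulation, 14 had enough counts, of which 10 fell, 2 rose and 2 did not pass, with a median log2 fold change of -0.65. That is 85.7% called against 38.8% of all genes, where 21.3% were called lower and 17.5% higher. This list and the other pathway lists below were chosen with earlier results of these data known, so their counts are a description. CHRM2, a muscarinic receptor, was lower, at 4.99 ± 0.567 and 0.216 ± 0.0318 CPM (log2 fold change -4.51, SE 0.19). Like BCHE, it passed the filter only through the parental group, which favours a difference, so its call supports nothing. CHRNB2, a nicotinic receptor subunit, fell from 65.4 ± 7.57 to 20.6 ± 0.880 CPM (-1.67, SE 0.10, adjusted p = 2.36e-06). LYNX1, a nicotinic receptor modulator, and the nicotinic subunits CHRNB4, CHRNE and CHRNA2 fell by 1.33, 0.98, 0.82 and 0.76 on the log2 scale. Exons of CHRNE overlap C17orf107 over 44.4% and MINK1 over 10.9% of their length, both on the opposite strand. C17orf107 held 458 to 822 and MINK1 1357 to 2970 reads per library, against 568 to 1812 for CHRNE. CHRM1, another muscarinic receptor, rose from 4.66 ± 0.834 to 12.0 ± 0.236 CPM (1.37, adjusted p = 3.62e-05). CHRNA10 rose by 0.90 (adjusted p = 0.0175), a call lost in 5 alternatives, 4 of which left out 1 library each. Its exons share 133 bases, 4.92% of their length, with NUP98 on the same strand. NUP98 held 4468 to 8242 reads per library against 33 to 90 for CHRNA10, and the part of NUP98 reads in the CHRNA10 values was not tested. CHRM3 did not pass, at 13.01 ± 0.796 and 12.3 ± 0.748 CPM, and was singled out after its values were seen.

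The machinery that makes and loads acetylcholine was at or near 0. SLC18A3, the vesicular acetylcholine transporter, and SLC5A7, the high-affinity choline transporter of cholinergic neurons, had no read in any library. CHAT, the acetylcholine-synthesising enzyme, had 1 read in each of 2 parental libraries and none in the liver-derived ones. Of 8 neuronal markers, 7 had enough counts, of which 6 were lower and none higher. That is 85.7% called, against 38.8% of all genes called and 21.3% called lower. Of the 6, ELAVL4 and GAP43 passed the filter through the parental group only. The summed level of the 8 markers was 76.9 to 89.5 CPM in parental and 33.1 to 36.6 CPM in liver-derived libraries. None of the 8 was at 0 in all libraries. The part of these markers in the result was not tested.

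Downstream of the kinases, 23 other genes of choline transport and phosphatidylcholine synthesis moved in both directions. Of 21 with enough counts, 8 rose, 5 fell and 8 did not pass, which is 61.9% called against 38.8% of all genes. The split was 7 up and 7 down when scaled by library size alone, and 10 up and 8 down without parental replicate 2. CHPT1, which joins the choline head group to diacylglycerol in the last step of the pathway, fell from 389.9 ± 18.2 to 168.9 ± 5.70 CPM (log2 fold change -1.21, SE 0.07, adjusted p = 1.50e-06). PCYT1A, the rate-limiting enzyme after the kinases, was at 59.3 ± 2.79 and 53.5 ± 1.19 CPM and did not pass (adjusted p = 0.128); it was singled out after its values were seen. FLVCR2, a choline carrier at the blood-brain barrier, rose from 2.58 ± 0.284 to 7.46 ± 0.621 CPM. Its exons share 6.76% of their length with TTLL5 on the same strand. TTLL5 held 1228 to 2428 reads per library against 103 to 360 for FLVCR2, and its part in the FLVCR2 values was not tested. SLC22A3, an organic cation transporter, rose by 1.02 and SLC22A5, a carnitine transporter, by 0.42. Of the 4 lysophosphatidylcholine acyltransferase genes 3 rose and 1 fell: LPCAT2 rose by 1.43, LPCAT3 by 0.38 and LPCAT1 by 0.25, and LPCAT4 fell by 1.27. LPCAT1 and LPCAT3 were singled out after their values were seen. Of the ethanolamine kinases, ETNK2 fell by 0.80 and ETNK1 rose by 0.50, the latter call being lost in 8 alternatives and its value being 0.30 without parental replicate 2.

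Among 19 genes of choline lipid turnover, 17 had enough counts, of which 6 rose, 3 fell and 8 did not pass, which is 52.9% called against 38.8% of all genes. PLA2G4A, the cytosolic phospholipase that releases arachidonic acid, had the largest change of this list and went up from 4.77 ± 0.579 to 36.4 ± 0.747 CPM, by 2.93 on the log2 scale (SE 0.10, adjusted p = 1.15e-07). The phospholipases D, which free choline from phosphatidylcholine, split: PLD1 rose by 1.29 and PLD2 fell by 0.53. The sphingomyelin synthases split likewise, with SGMS2 up by 0.74 and SGMS1 down (-0.31). PLA2G6 rose by 0.45, SMPD3, a sphingomyelinase, fell by 0.31, and GPCPD1, a glycerophosphocholine hydrolase, rose by 0.37, a call lost in 8 alternatives. Without parental replicate 2 the list held 15 calls, 88.2% of its tested genes against 59.8% of all genes, and GPCPD1 stood at 0.23. It held 4 calls without liver-derived replicate 2 and 5 without either other liver-derived library, where the calls over all genes were 5600 to 5931 in place of 7476.

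Choline can instead be oxidised to betaine and feed methyl groups to methionine. Of 9 genes of that route, 8 had enough counts, of which 5 were called higher and 3 lower, against 38.8% of all genes called. CHDH, choline dehydrogenase, rose by 1.15 on the log2 scale (SE 0.07, adjusted p = 2.04e-06), from 74.0 ± 3.43 to 164.5 ± 2.22 CPM. Its exons overlap those of CACNA1D on the opposite strand over 18.0% of their length. DMGDH, dimethylglycine dehydrogenase, rose by 1.64, whereas SARDH, the next enzyme, was at 4.59 ± 0.762 and 0.212 ± 0.0847 CPM (-4.34, SE 0.25). GNMT and MAT2A, which use and make S-adenosylmethionine, rose from 5.02 ± 0.876 to 10.1 ± 0.921 CPM and from 219.9 ± 20.5 to 394.1 ± 2.48 CPM. ALDH7A1, which can oxidise betaine aldehyde, fell by 0.57 and MTR, methionine synthase, by 0.33. BHMT, which passes a methyl group from betaine to homocysteine, had 1 to 7 reads per parental and 8 to 29 per liver-derived library. It is under 1 CPM and was singled out after its values were seen. SARDH and BHMT each passed the filter on low counts through 1 group only, which favours a difference, and their calls support nothing.

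**Figure D4:**
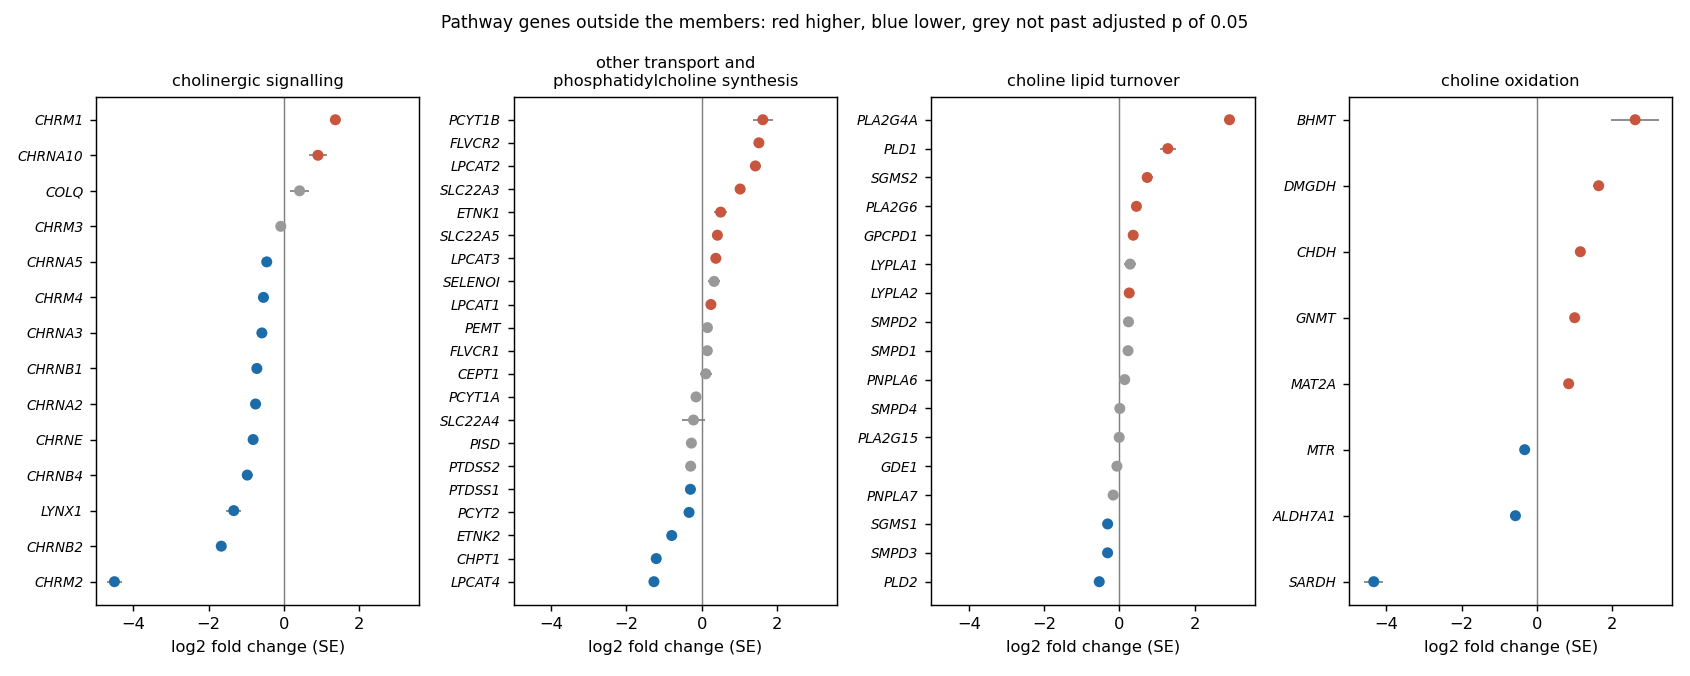
Fitted log2 fold change, liver-derived minus parental, with SE as bars, of the tested genes in the 4 lists around the 10 genes; red and blue mark genes higher and lower at an adjusted p under 0.05 (edgeR) and grey those that did not pass. In the cholinergic list 10 of 14 genes are called lower, ending with CHRM2 at -4.51, while the other lists hold 8 and 5, 6 and 3, and 5 and 3 genes called higher and lower.

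Around the 10 genes in the genome, 118 other tested genes lay within 250 kb, of which 25 rose, 22 fell and 71 did not pass. That share, 39.8%, was close to the 38.8% of all genes. BCHE had no tested neighbour within that distance. PRIMA1 had 2, and both fell: UNC79, 10422 bases away, from 14.6 ± 0.657 to 2.10 ± 0.396 CPM (log2 fold change -2.76, SE 0.13, edgeR adjusted p = 5.49e-07), and OTUB2 by 0.39. SLC44A3 had 6 neighbours, of which 4 rose, none fell and 2 did not pass, among them CNN3, 1703 bases away, at 52.0 ± 0.910 and 91.6 ± 1.43 CPM (0.82). Near ACHE 1 of 14 rose and 5 fell, near SLC44A2 3 of 16 rose and 4 fell, near SLC44A4 9 of 40 rose and 3 fell, and near CHKB 4 of 20 rose and 5 fell. CHKA had 4 of 11 neighbours that rose and none that fell, SLC44A1 1 of 4 that fell, and SLC44A5 2 of 5 that fell. The neighbours named here were singled out after their values were seen, and without parental replicate 2 the number called among the 118 was 79, or 66.9%, against 59.8% of all genes.

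The genes whose profile over the 6 libraries was most like that of BCHE were SLC6A11, a GABA transporter, LHFPL4, FEV, an ETS transcription factor, and DKK1, a secreted Wnt inhibitor. Likeness was measured as the root mean square difference of log2 CPM centred on each gene's mean, over 13133 genes reaching 1 CPM in a group. It was 0.37, 0.48, 0.49 and 0.51 log2 units in that order. SLC6A11 went from 7.03 ± 0.528 in parental to 0.0943 ± 0.0441 CPM in liver-derived cells and FEV from 20.4 ± 3.16 to 0.220 ± 0.105 CPM, so both shared with BCHE a level near 0 in the liver-derived libraries. For SLC44A3 the nearest profiles were those of PCDHA10, ZNF587B, ATF6 and BCL2L11, at 0.03 to 0.05 log2 units. With 6 libraries in 2 groups, such a likeness rests mostly on the size of the difference between groups.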

How the data were processed

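PolyA-selected RNA of parental and liver-metastasis-derived 22Rv1 cells, 3 libraries each, was sequenced as paired reads, per the labels' protocols. Per the submitters' processing notes, Trimmomatic 0.36, STAR 2.5.2b, Subread 1.5.2 with featureCounts and GRCh38 were used. The sources used here do not give the parameters, the annotation release or the strand setting. The authors deposited raw counts per gene and library and 1 table of TPM. TPM recomputed from counts and gene lengths matched the deposited TPM at a relative tolerance of 0.001 for 100% of values. Its 391182 trailing rows, which name no gene, were dropped. Symbols were matched for 98.1% of gene identifiers, and GENCODE 29 served for biotypes and GC content. Exon overlaps were computed from the exon coordinates deposited with the counts.

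The count test was that of edgeR 4.0.16 under R 4.3.3, with filterByExpr, TMM scaling and robust quasi-likelihood fits with the group as the only term, adjusted by the Benjamini-Hochberg method over 19255 genes, with a threshold of 0.05. The biological coefficient of variation, common to all genes, was 9.57%. CPM are TMM-scaled, ± is the SD over 3 libraries, and intervals from read counts cover counting error only. For edgeR fits, the SE was derived as the size of the log2 fold change over the square root of the test's F statistic. Intervals of fold changes were built from that SE. The fit was tested on simulated counts. These had a single spread for all genes and no deviating library, so the test does not cover the deviation of parental replicate 2. The 10 genes and the pathway and marker lists were chosen with earlier results of these data known. From each pathway list the text names up to 8 genes past the threshold with at least 1 CPM in the higher group, in order of fold change, plus CHAT, SLC18A3 and SLC5A7. For the genes with the largest difference down and up, it names the 4 genes of most similar profile. Other named genes, apart from overlapping genes and markers, are marked as singled out later. The alternatives were DESeq2 1.42.0, limma-voom and limma on log2 TPM (limma 3.58.1; pseudocount 1 or 0.1), RLE factors, library size alone, other filters, a replicate block and each library left out. Folds on the log2(TPM + pseudocount) scale understate changes of low genes. No library looked like a second deposit of another, since pairs within a group differed by more than sampling noise; this does not show that libraries came from separate cultures. The labels give no batch or date.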

Additional observations from a re-analysis of the deposited data

How the results depend on the processing

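Over 16 alternatives the 10 genes gave 157 values, of which 150 kept direction and side of the threshold, 6 fell short of it, 1 passed it (SLC44A1 without parental replicate 2) and none reversed. The values that fell short were SLC44A4 without liver-derived replicate 1 or 3 and SLC44A5 in the 3 TPM fits and without liver-derived replicate 3. BCHE ranged from -6.84 to -4.08, the latter on the log2(TPM + 1) scale. Over all 41 genes tested in this way, 612 of 651 values kept both, 38 fell short and none reversed. Genes called in all were 7476, and from 5600 to 11870 with 1 library left out, the highest without parental replicate 2. Leaving out 1 library gave 4 to 15 calls for choline lipid turnover, against 9 with all libraries, and 29 to 79 for neighbouring genes, against 47. Shares were 23.5 to 88.2% and 24.6 to 66.9% of the tested genes, where 28.4 to 59.8% of all genes were called. Limma on log2(TPM + 1) without a filter gave 5 turnover calls. All other counts, with both directions summed, stayed within 1.5 times of their value with all libraries. Counts by direction moved further in places: lower calls among the 10 genes were 3 rather than 5 in the filtered TPM fits and without liver-derived replicate 3, and genes called higher were 5714 rather than 3375 without parental replicate 2. The replicate numbers are not known to pair libraries: deviations of same-numbered libraries correlated at -0.01, 0.01 and 0.07. A replicate block left 7052 genes called, the same number of 7 among the 10 genes, and 12 of the cholinergic genes. The cause of these changes was not tested. The 6 to 11 BCHE and 0 to 1 PRIMA1 reads per liver-derived library limit how finely their levels there can be compared.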
